A study of Mus musculus with 2 samples.

Results

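The regions described here are stretches of open chromatin that were called in late-stage mouse prostate tumor cells, had no called counterpart in early-stage cells, and lay between genes but close to one. Of 22570 peaks called in the late library on chromosomes 1 to 19, X and Y, 18018 (79.8%) overlapped no peak of the early library. Of these, 6435 overlapped no protein-coding gene body, and 3041 had their summit more than 1 kb and at most 50 kb from the nearest end of a protein-coding gene. Of these 3041, 41 in 2 stretches of chromosome 4 (81815783 to 83165450 and 122699690 to 123637714) were left out. The remaining 3000 regions made up 13.3% of the late peaks (exact binomial 95% interval 12.9 to 13.7%) and are called late-only near-gene regions below. They were chosen by the peak calls of both libraries, so their presence in one list and absence from the other is the selection and not a result.

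The data are from ATAC-seq, in which a transposase cuts and tags accessible DNA, on prostate tumor cells from C57BL/6 mice. One library (W2) was made after 2 weeks of tamoxifen, at an early stage of neuroendocrine prostate cancer, and the other (M6) after 6 months of tamoxifen, at a late stage. The labels name neither the alleles of the mice nor the number of animals, nor what tamoxifen acts on or whether cells were cultured. With 1 library per time point there is no replicate check and no test of the time points. The intervals below cover counting error only. At marker genes, a peak within 1 kb of a gene end was present for 5 of 7 luminal epithelial markers in W2 and 6 of 7 in M6, for 0 and 2 of 6 neuroendocrine markers, and for 0 of 3 basal, 0 of 5 leukocyte, 0 of 3 endothelial, 0 of 3 fibroblast and 0 of 2 smooth muscle markers in either library.

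Open regions outside genes are often distal regulatory elements, the enhancers, silencers and insulators to which transcription factors bind. Such elements differ more between cell types than promoters do. They can act over long distances, so the nearest gene is a label of position and not an assigned target. Some of them are promoters of transcripts that code for no protein, such as long non-coding RNAs (lncRNAs) and microRNA precursors.

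The sequences that could be set beside the regions were those of lncRNA promoters and microRNAs. RefSeq lists promoter windows from 250 bases before to 50 after each annotated start, here on build GRCm38.p6. A lncRNA window lay under 100 of the 3000 regions (3.33%, 2.72 to 4.04%), which touched the starts of 103 lncRNA genes. The windows under 3 of the 4 strongest of these regions are printed as examples, and the other is not reported here. Each is printed 5′ to 3′ on the strand of the gene, with up to 20 bases on either side of the peak summit in capitals. Gm32633 lies at chr7:63986585-63986884 on the plus strand, Gm33628 at chr12:108758142-108758441 on the minus strand and Kantr, a lncRNA transcribed next to Kdm5c, at chrX:152327444-152327743 on the minus strand.
Gm32633: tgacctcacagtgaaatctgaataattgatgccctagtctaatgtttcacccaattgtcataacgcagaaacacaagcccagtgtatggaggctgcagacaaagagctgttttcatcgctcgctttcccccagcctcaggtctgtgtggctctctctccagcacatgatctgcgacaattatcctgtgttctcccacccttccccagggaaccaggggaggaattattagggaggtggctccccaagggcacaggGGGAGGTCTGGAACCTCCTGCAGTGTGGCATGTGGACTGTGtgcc
Gm33628: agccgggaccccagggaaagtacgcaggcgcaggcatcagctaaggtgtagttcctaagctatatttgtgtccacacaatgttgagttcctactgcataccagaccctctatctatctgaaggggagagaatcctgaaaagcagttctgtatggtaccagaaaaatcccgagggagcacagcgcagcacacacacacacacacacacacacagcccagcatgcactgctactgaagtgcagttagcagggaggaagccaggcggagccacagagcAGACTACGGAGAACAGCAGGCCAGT
Kantr: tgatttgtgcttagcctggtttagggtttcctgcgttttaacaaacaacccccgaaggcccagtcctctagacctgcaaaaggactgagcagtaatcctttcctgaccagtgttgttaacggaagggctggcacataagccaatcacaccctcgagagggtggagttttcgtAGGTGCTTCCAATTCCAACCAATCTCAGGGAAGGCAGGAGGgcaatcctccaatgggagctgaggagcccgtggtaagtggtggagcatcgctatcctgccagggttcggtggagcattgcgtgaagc

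These starts belonged to M6 peaks with a −log10 q of 21.5 (Gm32633, 47.9 kb from the coding gene Klf13), 20.9 (Gm33628, 34.8 kb from Yy1) and 20.0 (Kantr, 9.30 kb from Tspyl2). The −log10 q is the authors' peak significance after correction for the whole list. The summit pileup, which is the number of tags stacked at the top of the peak, was 43, 40 and 33, and the fold over local background was 7.38, 7.68 and 8.85. All 3 lay far above the median late-only near-gene region, which had 6.06 on that scale and 19 tags. CpG counts in the 300 bases were 4, 7 and 9, beside a median of 4 over all lncRNA windows and 13.0 over protein-coding ones. GC content was 53.0%, 53.3% and 53.3%. These 3 windows do not stand for the whole set.

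A further 3 lncRNA starts are shown because of the microRNAs they are linked with, and were picked after their values had been seen. Oip5os1, known as Cyrano, carries a site that binds miR-7 and drives its decay. Its window is chr2:119594046-119594345 on the plus strand. A230051N06Rik starts just before the gene of miR-7b, at chr17:56241466-56241765 on the plus strand. Mirc35hg is the host transcript of miR-183 and miR-96, with its window at chr6:30174076-30174375 on the minus strand. Within the capitals, the Oip5os1 window holds a GC box (GGGCGG, a site of SP and KLF factors). The Mirc35hg window holds TGAATCA there, which matches the AP-1 pattern used here (TGANTCA). That pattern allows any base in the middle, so the match is a loose one.
Oip5os1: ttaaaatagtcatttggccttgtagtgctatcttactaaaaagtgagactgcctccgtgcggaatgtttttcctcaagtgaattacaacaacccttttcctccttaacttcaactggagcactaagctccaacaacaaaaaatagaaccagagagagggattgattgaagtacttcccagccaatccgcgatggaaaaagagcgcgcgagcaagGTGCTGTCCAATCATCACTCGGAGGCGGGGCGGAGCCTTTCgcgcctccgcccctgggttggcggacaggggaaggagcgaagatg
A230051N06Rik: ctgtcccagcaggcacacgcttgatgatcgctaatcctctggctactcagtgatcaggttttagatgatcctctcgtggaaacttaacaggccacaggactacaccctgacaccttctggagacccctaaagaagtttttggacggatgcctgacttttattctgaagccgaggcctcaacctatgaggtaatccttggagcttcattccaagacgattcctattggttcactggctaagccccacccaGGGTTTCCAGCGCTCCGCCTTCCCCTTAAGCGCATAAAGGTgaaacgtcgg
Mirc35hg: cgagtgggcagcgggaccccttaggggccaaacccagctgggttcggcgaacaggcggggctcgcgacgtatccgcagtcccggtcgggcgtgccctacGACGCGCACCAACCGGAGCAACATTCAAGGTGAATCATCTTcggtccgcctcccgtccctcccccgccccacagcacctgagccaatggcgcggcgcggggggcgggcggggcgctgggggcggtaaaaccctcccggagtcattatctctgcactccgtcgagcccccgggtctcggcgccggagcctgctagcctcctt

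The Oip5os1 peak had a −log10 q of 11.4, a fold of 6.48 and a pileup of 24. The A230051N06Rik peak had a −log10 q of 15.4, a fold of 6.85 and a pileup of 32, and its summit lay 1.25 kb upstream of the miR-7b hairpin. Late-only peaks thus lay at the start of the lncRNA known to lower miR-7 and at a lncRNA start near a miR-7 gene. Whether that second start gives rise to miR-7b was not tested. The Mirc35hg peak lay over a CpG-rich window (70.3% GC, 35 CpG), 4.52 kb upstream of miR-183. Its −log10 q was 7.42, with a low fold (3.64) and a high pileup (33). The local background there was 8.34 tags, against a median of 3.17 over the late-only near-gene regions.

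Of the 3000 regions, 4 overlapped a microRNA hairpin and 16 lay within 5 kb of one or more, which gave 22 hairpins. The share within 5 kb was 0.533% (0.305 to 0.865%), against 0.349% (0.168 to 0.641%) of late-only peaks over 50 kb from genes. Of 358 M6 peaks of the same position with a W2 counterpart, 5 lay as close (0.455 to 3.23%). These intervals overlap, so nearness to microRNAs did not set the regions apart from these classes. Hairpins were overlapped by 0.133% of the regions, 0.175% of the over-50-kb peaks and 0 of the 358. The mature microRNAs shown are those that share a seed, plus miR-7b and the named arms of miR-183, miR-96 and miR-193b. The seed, bases 2 to 8, pairs with target messages and is in capitals. MiR-132 and miR-212, neuronal activity-regulated microRNAs made from one precursor region, share the seed AACAGUC. In the miR-17 to miR-92 cluster, an oncogenic cluster driven by MYC, miR-17 and miR-20a share AAAGUGC and miR-19a and miR-19b share GUGCAAA.
mmu-miR-132-3p: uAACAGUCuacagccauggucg
mmu-miR-212-3p: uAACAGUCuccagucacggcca
mmu-miR-17-5p: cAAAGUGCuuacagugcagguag
mmu-miR-20a-5p: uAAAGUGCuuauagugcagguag
mmu-miR-19a-3p: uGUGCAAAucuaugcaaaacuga
mmu-miR-19b-3p: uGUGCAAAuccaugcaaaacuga
mmu-miR-7b-5p: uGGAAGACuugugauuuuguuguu
mmu-miR-183-5p: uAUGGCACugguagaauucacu
mmu-miR-96-5p: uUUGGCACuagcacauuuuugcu
mmu-miR-193b-3p: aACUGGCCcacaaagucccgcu

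The peak over Mir132 (chr11:75173511-75173868) covered its hairpin, with a −log10 q of 11.9, a fold of 4.74 and a pileup of 37; its summit lay 13 bases past the hairpin's 5′ end. The summit was 0.307 kb past the 5′ end of Mir212. The peak before the miR-17 cluster was weak (−log10 q 3.73, fold 3.28, pileup 20), and its summit lay 1.41 kb upstream of Mir17. The peak 3.82 kb upstream of Mir193b was among the stronger ones (−log10 q 14.9, fold 5.65, pileup 38). The other hairpins overlapped were Mir713 (−log10 q 7.74), Mir759 (8.82) and Mir7229 (2.66). These are peaks of accessibility, and the microRNAs themselves were not measured.

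As a class, the late-only near-gene regions were weaker and narrower than M6 peaks of the same position that had a W2 counterpart. Their median −log10 q was 6.06 (quartiles 4.26 and 8.57, range 1.46 to 32.4), against 10.2 for the 358 shared peaks. The median fold was 4.57 against 5.48, the median width 302 bp against 404 bp, and the median pileup 19 against 27.0 tags. They differed little from late-only peaks elsewhere, whose median −log10 q was 6.19 at gene ends, 5.99 in gene bodies and 6.16 over 50 kb from any gene. Median widths were 334, 302 and 307 bp. The plot of strength and width by class shows the near-gene, gene-body and over-50-kb classes almost on top of each other, with the shared peaks to the right.

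**Figure D1:**
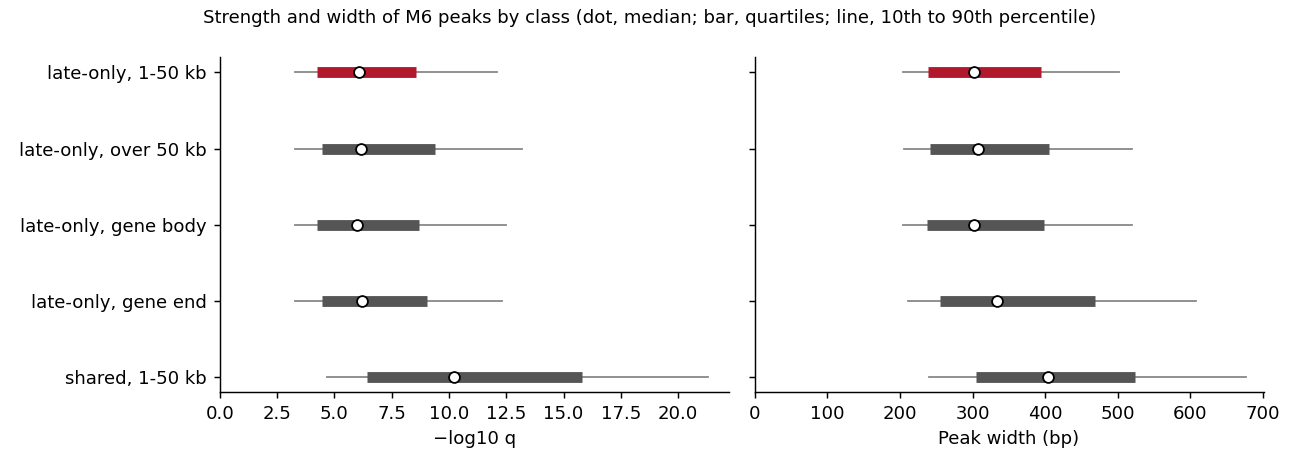
Strength as −log10 q (left) and width in bp (right) of M6 peaks in 5 classes by position and W2 overlap; dots are medians, thick bars quartiles and thin lines the 10th to 90th percentiles over peaks. The late-only classes have medians between 5.99 and 6.19, and the shared peaks 1 to 50 kb from genes have a median of 10.2.

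How far the absence from W2 rests on the detection limit was examined through the pileups. The lowest pileup of any called peak was 12 tags in W2 and 10 in M6. The lowest background recovered at any called peak was 2.96 tags in W2 and 2.65 in M6 (M6 to W2 ratio 0.895). How that ratio relates to read depth was not tested. Of the late-only near-gene regions, 40 (1.33%) had an M6 pileup under 12. That minimum is not a usual W2 value, as W2 peaks of the same position had a 10th percentile of 15.0 tags and a median of 20.0. Counts set against it therefore do not give the number of regions that W2 could have missed. At the 359 shared sites of the same position, however, M6 pileups were higher in 73.5% of cases, with medians of 20.0 in W2 and 27.0 in M6 and a median ratio of 1.31. Divided by that ratio, the pileups of 705 regions (23.5%) fell under the W2 minimum of 12 tags, and those of 413 reached 20 tags, the median W2 pileup at shared sites. The number of W2 tags at the late-only regions is not recorded in the peak lists, so a region called late-only may have carried some W2 signal.

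**Figure D2:**
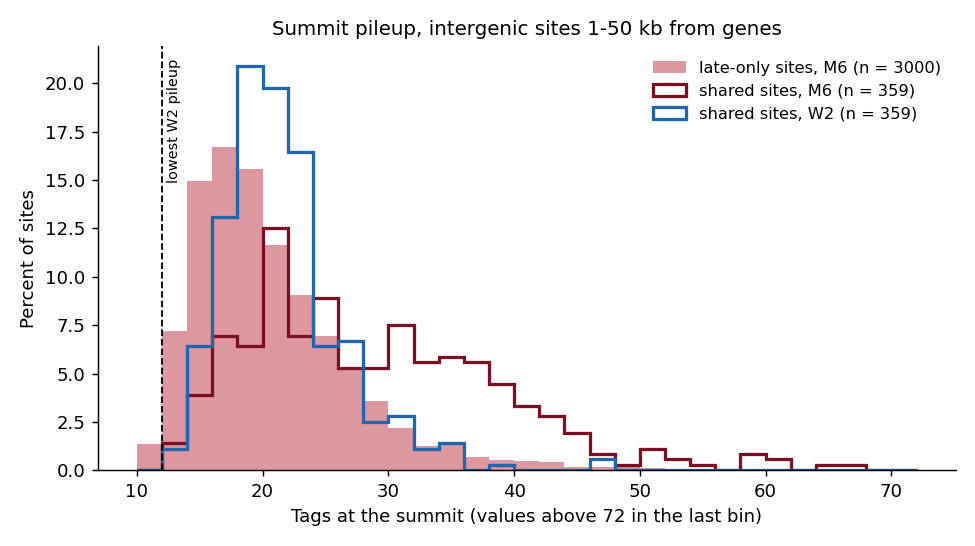
Distribution of summit pileup, in tags, for intergenic sites 1 to 50 kb from genes: filled, the 3000 late-only regions in M6; outlines, 359 shared sites in each library; dashed line, the lowest pileup of a called W2 peak (12 tags). Late-only regions have a median of 19 tags, and shared sites 20.0 in W2 and 27.0 in M6.

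The share of late-only peaks depended on position. Of the M6 peaks lying 1 to 50 kb outside a gene, 89.3% (88.2 to 90.4%; 3000 of 3358) had no W2 overlap. That share was 60.4% at gene ends, 89.4% in gene bodies and 94.9% over 50 kb from genes. W2 itself had 697 peaks in this near-gene space, and 338 of them had no M6 counterpart. These W2-only peaks had a median −log10 q of 5.25, within their own list.

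The density of late-only near-gene regions was highest in the distance class closest to the gene and lowest in the farthest, without a steady fall between them. Measured per megabase (Mb) of the 619.0 Mb of sequence that lies 1 to 50 kb outside genes, they numbered 4.85 on average. The density was 5.58 per Mb (Poisson 95% interval 4.79 to 6.46) at 1 to 2 kb and 4.12 (3.64 to 4.64) at 40 to 50 kb. These intervals do not overlap, but they belong to the highest and lowest classes. In between, the density was 4.60 (4.15 to 5.09) at 2 to 5 kb and 4.88 (4.41 to 5.39) at 30 to 40 kb. Shared M6 peaks went from 1.06 to 0.291 per Mb over the same distances and all W2 peaks from 1.78 to 0.674. The median −log10 q lay between 5.66 (40 to 50 kb) and 6.19 (2 to 5 kb) in every distance class. Where the strand of the nearest gene could be read from its promoter entry, 1198 regions lay upstream (4.54 per Mb, 4.29 to 4.81) and 1142 downstream (5.08 per Mb, 4.79 to 5.38). The sides differed most at 2 to 5 kb, with 3.33 per Mb upstream (2.75 to 4.00) and 5.92 downstream (5.10 to 6.84). In that class shared M6 peaks (0.492 upstream and 1.06 downstream) and W2 peaks (0.926 and 1.54) leaned the same way.

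**Figure D3:**
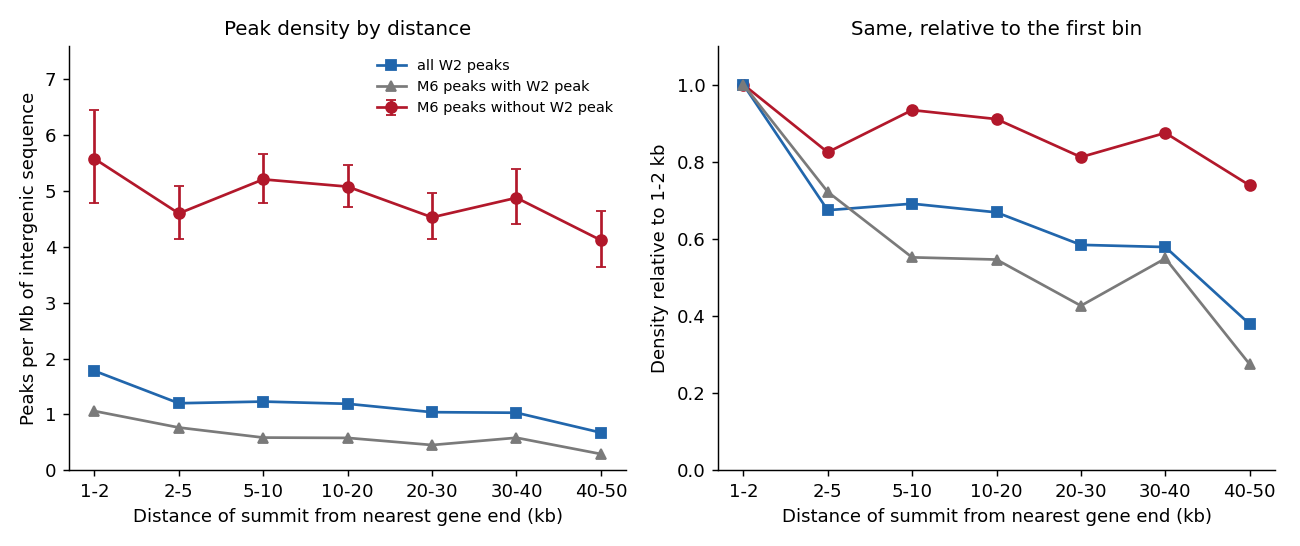
Left, peaks per Mb of intergenic sequence by distance of the summit from the nearest gene end, for late-only regions (red, with exact Poisson 95% intervals), shared M6 peaks (grey) and all W2 peaks (blue); right, the same values divided by the value at 1 to 2 kb. Late-only regions stay between 4.12 and 5.58 per Mb, while shared M6 peaks go from 1.06 to 0.291.

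The distance limits cut through a continuum. Just outside the 1 kb limit, the regions near Ap3m2 (1006 bp, −log10 q 4.76) and Jag1 (1009 bp, 3.51) were kept, and the peaks near Lpgat1 (998 bp, 3.97) and Vil1 (996 bp, 5.47) were not. At the far limit, the regions near Zswim6 (49976 bp, 4.67) and Mdga2 (49947 bp, 15.8) were kept, and the peaks near 1700113H08Rik (50032 bp, 9.41) and Setd4 (50052 bp, 10.2) were not.

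By chromosome, autosomes held from 3.06 late-only near-gene regions per Mb (chromosome 7) to 6.95 (chromosome 11, 6.02 to 7.98). The X chromosome held 41 in 45.4 Mb, or 0.903 per Mb (0.648 to 1.22), and the Y chromosome 2 in 22.8 Mb. W2 peaks of the same position were also sparse on X, with 6 in all. The Kantr start printed above is one of the 41 regions on X.

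The strongest regions lay next to genes of very different roles. The highest −log10 q, 32.4, belonged to chr6:138130319-138131121, 9.97 kb upstream of Mgst1, a membrane-bound glutathione transferase that detoxifies electrophiles and lipid peroxides (fold 10.2, pileup 51). It was followed by chr10:39659525-39660542 near Traf3ip2, an adaptor of interleukin-17 receptors (−log10 q 31.8, fold 8.01, pileup 61), and by chr16:11021567-11022199, 28.8 kb upstream of Litaf, a protein of endosomes (29.8, 9.09 and 51). Next were regions near Tas2r118, a bitter taste receptor gene (28.8), Ahi1, a gene of primary cilia (28.4), Cacna1i, a T-type calcium channel of neurons (28.3), and Epb41l4a (28.1). The other 5 of the 12 strongest lay near Apip (26.2), Tmem212 (26.0), Gm5724 (25.3), Col19a1 (25.1) and Arhgap11a (24.9). None of these genes is on the neuroendocrine list used below.

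The 6 regions with the highest fold were largely the same ones. Col19a1 led with 10.4, then Mgst1 with 10.2, Dgke with 10.1, Ahi1 with 10.1, Apip with 9.86 and Epb41l4a with 9.70. The region near Col19a1 (chr1:24612594-24612887, pileup 37 over a background of 2.65) overlaps the pseudogene Gm10222, in a stretch known to hold a nuclear copy of mitochondrial DNA.

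The 3000 regions had 2385 different nearest genes, 10.9% of the 21887 protein-coding genes. Most of these genes, 1902, had 1 region, 378 had 2, 85 had 3, 13 had 4 and 7 had 5. The genes with 5 were Ahi1, Rybp, Cpxm2, Cstad, Krt80, Serp2 and Tubb3, and Fam174a stood first among those with 4. Around Ahi1 the 5 regions ranged in −log10 q from 3.30 to 28.4, and W2 had peaks only at the gene's start and inside it (−log10 q 7.01 each). Around Rybp, a subunit of Polycomb complexes, they ranged from 4.71 to 18.4, and around Serp2 from 6.14 to 10.1, with no W2 peak at either gene or within 50 kb of it. No W2 peak was called around Cpxm2 or Cstad. Around Krt80, a keratin gene, and Fam174a there was 1 W2 peak each.

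Tubb3, the neuronal β-tubulin used as a marker of neurons, had its 5 regions in a single run 5 to 10.4 kb downstream of the gene (chr8:123426433-123432720). Their pileups of 50 to 71 tags were the highest of the late-only near-gene regions at any of these 8 genes, yet their folds were 2.27 to 3.28, because the local background there was 20.9 to 25.7 tags against a median of 3.52 over all M6 peaks. Only 8 regions had a background of at least 3 times that median: these 5, a region 1.14 kb upstream of Jun (12.7 tags) and 2 near Gm52481 on the Y chromosome. The W2 background in this downstream stretch is not recorded, as no W2 peak was called there. Tubb3 also had an M6 peak at its start (−log10 q 9.12) with a background of 5.50 tags. The part of the raised background in these 5 calls was not tested.

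**Figure D4:**
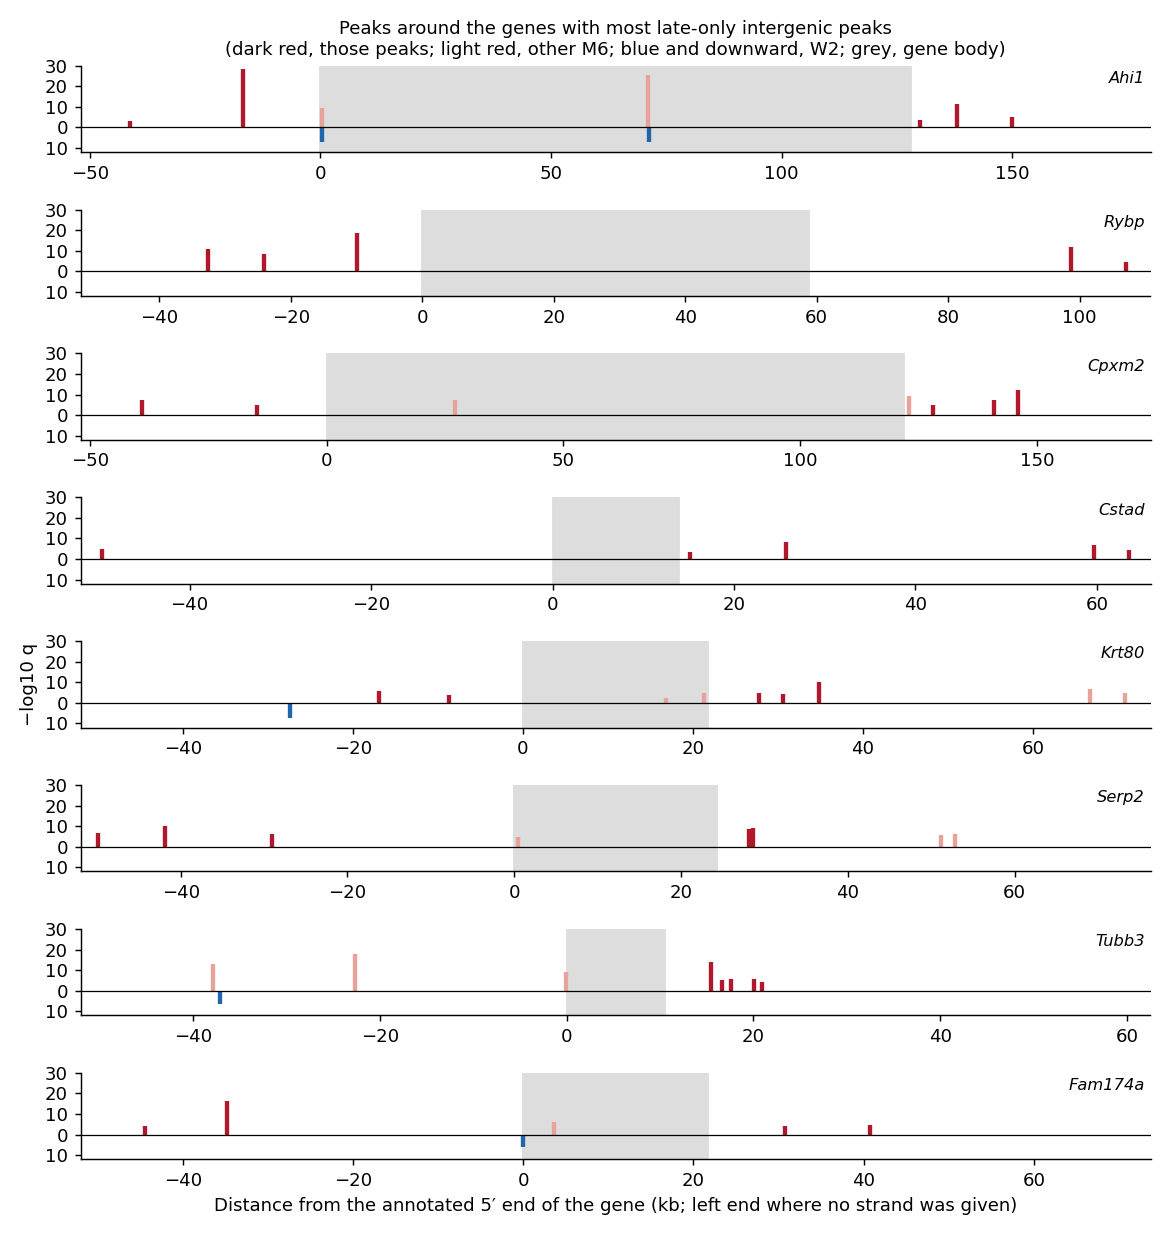
Peaks in the body and 50 kb on either side of the 8 genes with most late-only near-gene regions; the x axis is the distance in kb from the gene's 5′ end (from its lower coordinate for Rybp and Krt80, whose strand was not given), and bar height is −log10 q (upward M6, dark red for late-only near-gene regions and light red for other M6 peaks; downward W2). Rybp, Cpxm2, Cstad and Serp2 have no W2 peak, and the 5 Tubb3 regions sit side by side downstream of the gene.

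Late-only near-gene regions were mostly single. Within 10 kb of another one lay 512 (17.1%, 15.7 to 18.5%), in 19 runs of 3 or more and many pairs. The longest run was that at Tubb3 (5 regions in 6.29 kb), and the next held 4 regions in 14.8 kb near Rassf3 and Tbk1 on chromosome 10 (−log10 q 3.20 to 9.85, with ordinary backgrounds of 3.52 to 4.40 tags). W2 peaks were mostly distant: 1.70% of the regions had one within 1 kb, 9.53% within 10 kb and 37.5% within 50 kb, with a median distance of 79.3 kb.

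Peaks at the ends of the nearest genes were not used to choose the regions, although the distance to those ends was. However, a region with an edge within 1 kb of a gene end, as at Celsr3 and Ccnb1, itself counted as an M6 gene-end peak. The M6 shares are therefore not independent of the choice of regions, and the number of such cases was not determined. A gene-end peak was called in M6 for 48.7% of the nearest genes (1161 of 2385, 46.7 to 50.7%), against 39.7% of all protein-coding genes. In W2 the shares were 20.6% (19 to 22.3%) and 18.4%. For genes that border the same kind of intergenic sequence but were nearest to no late-only region, the shares were 36.6% in M6 and 16.8% in W2. With 3 or more regions, 54.3% of 105 genes had an open end in M6 (44.3 to 64.0%) and 25.7% in W2 (17.7 to 35.2%). Genes nearest to a shared peak had 53.2% and 28.2%. Gene-end peaks present in M6 and absent from W2 were found at 29.1% of the 2385 genes and at 21.9% of all genes. The other nearest genes had no called M6 peak within 1 kb of either end.

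Gene lists of tissues and pathways relevant to the tumor were then counted, as genes nearest to at least 1 late-only near-gene region. The lists had been drawn up with earlier results of these data known, and 16 of them with 377 genes were used. For each list the share of genes with a region is read beside 10.9% over all genes. The regions per Mb of intergenic space nearest to the list's genes are read beside 4.85, because genes in wide intergenic space offer more room for peaks. For W2 peaks of the same position the share over all genes was 2.95%.

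Neuroendocrine genes had a late-only near-gene region in 12 of 38 cases (31.6%, 17.5 to 48.7%), with 15 regions. No W2 peak of the same position lay nearest to a gene of this list, where the average W2 density would give 2.41. Several other lists had no such W2 peak either, among them ion channels, where that density would give 2.12. These counts leave out gene ends, where W2 did have a peak at Celsr3 and Hes6, alone among the 12 genes with a region. The strongest late-only region lay 43.5 kb from Nol4, a nucleolar protein gene expressed in neural cells (−log10 q 22.4). It was followed by a region 33.8 kb downstream of Scg2, a granin of secretory granules (20.5, chr1:79400418-79400794, fold 8.61, pileup 35). Next were Celsr3, a cadherin-type receptor of neurons, 1.14 kb upstream (17.6), Mycn, the MYC paralog amplified in neuroendocrine tumors, 31.3 kb downstream (15.9), and Srrm4, a splicing factor of neural exons linked to neuroendocrine prostate cancer, 34.7 kb upstream (13.1). The regions near Uchl1 (10.3), Sox11 (7.93), Snap25 (6.51 and 5.02), Elavl4 (5.90 and 4.10), Chga (4.67), Hes6 (3.39 and 1.89) and Rfx6 (2.66) were weaker. Per Mb the list had 7.01 regions (3.92 to 11.6), an interval that includes the average of 4.85.

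Other neural lists were alike in this. Neural transcription factors had a region at 10 of 32 genes (31.2%, 16.1 to 50%), led by Sox21 (−log10 q 10.2), Lhx1 (6.96) and Neurod4 (6.94), at 6.53 per Mb (3.47 to 11.2). Synapse and vesicle release genes had one at 9 of 28 (32.1%, 15.9 to 52.4%), led by Syn2, a synaptic vesicle phosphoprotein (15.4), Rims2, a scaffold of the release site (14.6), and Syt7, a calcium sensor (13.2), at 9.23 per Mb (4.77 to 16.1). Axon guidance genes had one at 11 of 28 (39.3%, 21.5 to 59.4%), led by Ntn4, a netrin (16.9), Sema6a (10.2) and Nrp2 (9.62), at 6.26 per Mb (3.42 to 10.5). Ion channels had one at 6 of 28 (21.4%, 8.30 to 41.0%) but 13 regions, 4 of them near Scn3a, a neuronal sodium channel (12.2 for the strongest), at 6.91 per Mb (3.68 to 11.8). The intervals of the shares lay above 10.9% for the first 3 of these lists and included it for ion channels, while each interval per Mb included 4.85. W2 had peaks of the same position at 1 neural factor (Atoh1), 1 synaptic gene (Syt7), 3 guidance genes (Efna5, Efnb2 and Epha7) and no channel.

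Luminal epithelial genes, which mark the secretory cells of the prostate, stood above the average over all genes on both measures. A region lay next to 13 of 34 (38.2%, 22.2 to 56.4%), at 16.9 per Mb (10.3 to 26.1). The list had 20 regions, where the average density over its intergenic space would give 5.73. Ehf, an epithelial ETS factor, had 3 regions (19.5, 10.9 and 8.55), and Elf3, of the same family, had 2 (14.9 and 7.18). Others lay near Nupr1 (11.8), Krt18 (11.3 and 3.68), Krt19 (8.07), Grhl2 (7.74), Gata2 (7.58 and 6.82), Spdef (7.35), Ndrg1 (5.40), Esrp1 (5.27), Epcam (4.93 and 4.85), Tmprss2 (4.39 and 2.16) and Foxa1 (2.66). Luminal genes were also the list with most W2 peaks in the same space, at 10 of 34 genes, including Elf3, Epcam, Foxa1, Grhl2, Krt18, Krt19 and Ndrg1. At these 7 genes late-only regions were thus found beside regions already open at 2 weeks.

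AP-1 and immediate early genes, which respond within minutes to growth factors and stress, had a region at 9 of 20 genes (45.0%, 23.1 to 68.5%) and 17.6 per Mb (9.83 to 29). They were Klf4 (13.1 and 4.63), Ier3 (11.2), Atf3 (8.29, 6.45 and 5.33), Jun (7.81, 6.52 and 5.10), Myc (7.74), Ier2 (7.18), Fosl2 (6.36), Fos (5.40 and 3.30) and Egr3 (4.58). W2 had peaks of the same position at 5 of the 20. Nuclear factor I and SOX genes, transcription factors of many lineages, had a region at 7 of 14 genes (50%, 23.0 to 77.0%) and 11.2 per Mb (5.13 to 21.3), with none in W2, where the average density would give 0.903. They were Nfic (11.9), Sox4 (8.40), Sox9 (8.12, 6.32 and 4.21), Sox18 (7.24), Sox5 (5.07), Nfia (3.97) and Sox13 (3.48).

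The lists of other cell types and of general genes had between 0 and 4 genes with a region. Fibroblast genes had none of 16 (upper limit 20.6%) and leukocyte genes none of 22 (upper limit 15.4%). Basal epithelial genes had 2 of 20 (10.0%), namely Dsc3 (8.28) and Krt14 (5.40). Smooth muscle genes had 2 of 10 (20.0%, 2.52 to 55.6%), namely Smtn (5.88) and Des (3.25). Endothelial genes had 4 of 15 (26.7%, 7.79 to 55.1%), namely Sox17 (8.37), Flt1 (6.94), Erg (5.18) and Vwf (4.71). Epithelial-mesenchymal transition genes had 4 of 16 (25%), namely Zeb1 (10.8), Twist2 (7.25), Spock1 (3.68) and Tgfbr2 (2.43). Cell cycle genes had 4 of 26 (15.4%), namely Ccne1 (5.27), Ccnb1 (5), E2f1 (4.67) and Cdk1 (3.27). Housekeeping genes had 3 of 30 (10.0%), among them Ywhaz (8.86) and Eef1a1 (6.50). Per Mb, smooth muscle genes had 11.2 regions (1.36 to 40.6), cell cycle genes 11.2 (4.11 to 24.4), housekeeping genes 9.35 (2.55 to 23.9), endothelial genes 7.67 (2.49 to 17.9), transition genes 7 (2.82 to 14.4) and basal genes 3.49 (0.422 to 12.6). These intervals all include 4.85, and most of the values are no lower than that of the neuroendocrine list. Fibroblast genes had 0 (upper limit 4.01) and leukocyte genes 0 (upper limit 7.38). All the counts rest on the full M6 list, which is longer than that of W2. With only the 5735 strongest M6 peaks, the same number as in W2, they came to 5 neuroendocrine, 0 neural factor, 4 synaptic, 1 guidance, 2 channel, 4 luminal, 2 AP-1 and 1 nuclear factor I or SOX genes, among 396 nearest genes in all.

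**Figure D5:**
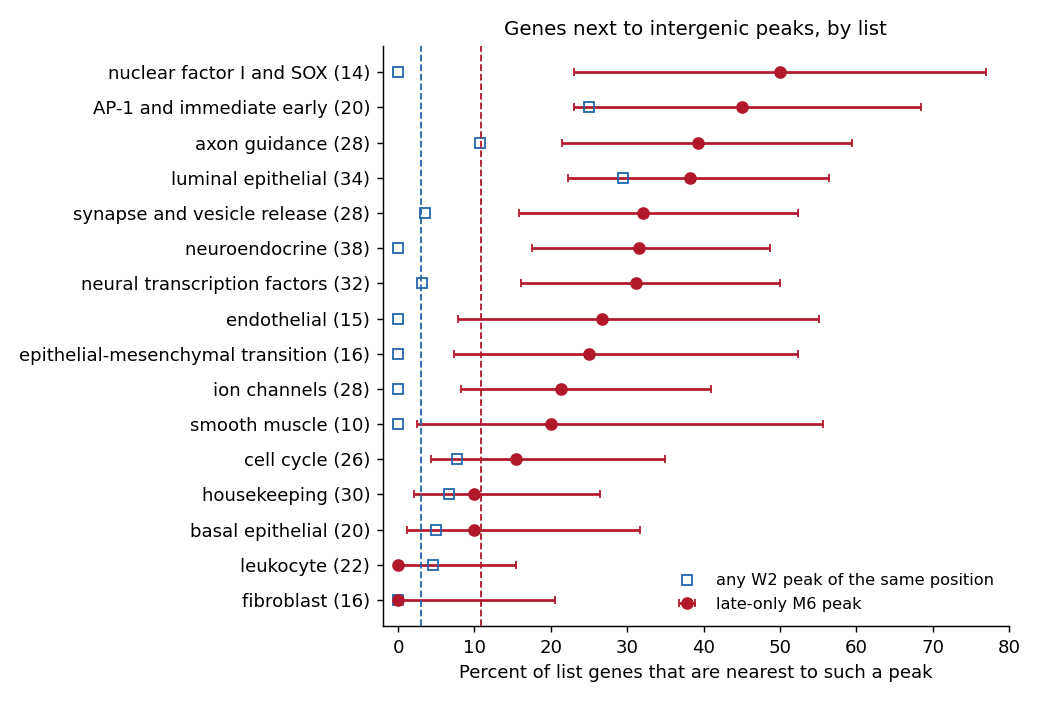
Percent of genes on each list (number of genes in brackets) that are nearest to at least 1 late-only near-gene region (red, exact binomial 95% interval) or to any W2 peak of the same position (blue squares); dashed lines mark the same over all protein-coding genes, 10.9% and 2.95%. Luminal genes (38.2%) and AP-1 genes (45.0%) also have W2 peaks at 10 and 5 genes. The neuroendocrine list (31.6%) has none, where the average W2 density would give 2.41 peaks. The ion channel, transition, fibroblast, smooth muscle, endothelial, and nuclear factor I and SOX lists have none either.

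Outside the coding genes, 21.2% of the regions lay in the body of a lncRNA gene, against 28.5% of the shared peaks. A lncRNA start lay under 3.33% of the late-only near-gene regions, as given above, and under 10.6% of shared peaks (7.62 to 14.3%). Late-only peaks over 50 kb from genes had 1.75% (1.30 to 2.30%). W2 peaks of the same position without an M6 counterpart were close to the late-only regions. Of these, 22.5% lay in a lncRNA body and 2.96% (1.43 to 5.37%) over a lncRNA start. Transfer RNA genes lay under 13 regions (0.433%, 0.231 to 0.740%) and under none of the 2863 late-only peaks over 50 kb from genes. They also lay under 4 of the 358 shared peaks (1.12%, 0.305 to 2.84%). Pseudogenes lay under 53 regions (1.77%), against 2.23% of shared peaks, 1.48% of W2-only peaks of the same position and 0.664% of late-only peaks over 50 kb from genes.

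The lncRNA windows under late-only near-gene regions were also less CpG-rich than those under shared peaks. Over 109 such windows, some of which belong to the same gene, the median GC content was 53.7% with 9 CpG. Over 46 windows under shared peaks the medians were 60.3% and 18, and over all 11588 lncRNA windows 48.3% and 4. Short motifs were counted on both strands. The GC box (GGGCGG), also seen in the Oip5os1 sequence above, was in 36.7% of the late-only windows, 65.2% of the shared ones, 16.3% of all lncRNA windows and 35.7% of all windows.

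Of the short motifs counted, 3 named here after their values were seen were more frequent in the late-only windows than in lncRNA windows at large. The forkhead motif (TGTTNAC) was in 20.2% against 13.3%, the RFX motif (GTTGCC) in 20.2% against 12.3% and the E-box of NEUROD-type factors (CAGATG) in 28.4% against 21.8%. Over all windows, coding genes included, these motifs were in 10.4%, 12.5% and 17.2%. None of the 3 motifs contains another. The AP-1 motif was in 8.26% against 9.31%, and the GATA motif (AGATAA) in 7.34% against 14.0%. With 109 windows these shares are coarse, and a match of a few letters is not a bound site. Full nuclear factor I sites and androgen response elements were found in 0 of these windows and in 0.0431% and 0.535% of all lncRNA windows. The sequence around the other summits was not analysed here.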

How the data were processed

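Peak lists from ATAC-seq of 2 libraries (W2 and M6, 1 per time point) were used. The submitters' processing notes name build mm10 and the tools deepTools, Bowtie2, Trim Galore 0.5.0 and SAMtools 1.4; the peak caller, its threshold, the handling of duplicates and any shift of read ends are steps not given in the sources. Each library has its own deposited list, so no pooling took place. The fold, as deposited, is the ratio of tags at a peak's summit to those around it. Peak significance as −log10 p and −log10 q was also deposited by the authors and ranks peaks within a list. The score deposited with each peak was not used further. The read depth is unknown.

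Genes, promoter windows and microRNAs came from RefSeq tables of GRCm38.p6, which names the same assembly as mm10. Peaks sharing at least 1 bp were called overlapping. Strand came from the promoter table and was known for 2340 of the 3000 regions. Summit pileups and backgrounds were recovered from the fold and −log10 p, where the fold equals (pileup + 1)/(background + 1) and p is a Poisson upper tail; a whole pileup fitted 100% of peaks in both lists within 0.001 of −log10 p, and the step was tested on simulated peaks. The planned GC content, repeats and motifs around every summit needed a genome sequence and were not analysed here; RefSeq promoter windows were used in their place. The motif list also held motifs not described in the text. A few results are not reported here. Shares carry exact Clopper-Pearson and densities exact Poisson 95% intervals. Python 3.11.15, pandas 2.3.3, NumPy 2.4.6, SciPy 1.17.1 and matplotlib 3.10.9 were used.

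The regions and gene lists were chosen with earlier results of these data known. Regions named are the 12 with the highest −log10 q, the 6 with the highest fold, those of the 8 genes with most regions, up to 3 per gene list and those beside the distance limits; further list members, lncRNAs and microRNAs were named after their values were seen. Alternatives covered the overlap rule, the strength and number of M6 peaks, the gene bodies left out, distance, spacing and the gene-end window.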

Additional observations from a re-analysis of the deposited data

How the results depend on the processing

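Counts were called close within 1.5 times the value reported, and shares and medians within its 95% interval. Leaving gene lists aside, 57 of 83 alternative values were close and 26 moved. Of 160 counts for gene lists, 35 moved. With only M6 peaks of −log10 q of at least 5, there were 1908 late-only near-gene regions (12% of the M6 peaks kept), with a median −log10 q of 7.74, 11.5% within 10 kb of another and 39.4% of nearest genes with an M6 gene-end peak, against 32.8% of all genes. With as many M6 peaks as W2 has, there were 421 (7.34%) near 396 genes, with a median −log10 q of 13.5, 3.33% within 10 kb of another, 4.28% over a promoter window and 18.7% of nearest genes with an M6 gene-end peak, against 16.5% of all genes. Both settings shorten the list of gene-end peaks too. Leaving out the bodies of all annotated genes gave 10.2% of M6 peaks, 14.8% within 10 kb and 0.480% over a promoter window, as that setting removes lncRNA bodies. A distance over 5 kb gave 10.8% of M6 peaks and a median distance of 18.7 kb. A distance of at most 20 kb gave 1865 regions (8.26%), a median distance of 8.18 kb and 15.1% within 10 kb. Spacing limits of 5 and 25 kb gave 9.53% and 30.6%. A gene-end window of 2 kb gave 55.2%, but the 179 regions with summits at 1 to 2 kb then count as gene-end peaks themselves. The share over all genes was not computed for that window. Keeping only regions whose scaled pileup reached the lowest W2 pileup, a setting chosen after seeing the data, gave 10.2% of M6 peaks with a median −log10 q of 6.94. Over all settings the count of genes with a region ran from 4 to 12 for the neuroendocrine list, 0 to 10 for neural factors, 4 to 13 for luminal genes and 2 to 9 for AP-1 genes. A window of 300 bp around the summit was not run, since it needs the genome sequence. No paired analysis was possible because each time point had 1 library. Unknown depth limits how far absence from W2 can be read.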
